A study of Tachycineta bicolor with 12 samples.

Results

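Ovary and spleen of the tree swallow (Tachycineta bicolor) were compared directly, first for the genes that both tissues used and the rest of the body samples hardly did, and then for the genes that set them most apart. The comparison rested on 4 of the 12 libraries, a NextSeq and a MiSeq library of the ovary and a NextSeq and a MiSeq library of the spleen. A gene counted as shared when its summed level reached 10 CPM or more in ovary and in spleen and stayed under 1 CPM in brain, liver, muscle and blood. CPM are counts scaled by the total count of the tissue, so a level is a share of all counted RNA. Of the 14908 gene segments in the table, 27 met that rule, or 0.181%, and they carried 25 different protein names.

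Both tissues came from the same 2 wild adult females, with no treatment named, of which 1 was taken during territory establishment and the other during incubation. The study describes small white ovarian follicles in the first female. For the incubating female it describes mostly white follicles and some small yellow ones. RNA of the females was mixed in equal amounts into 1 pool per tissue, and each pool was sequenced once on each platform. The 2 libraries of a pool are therefore technical repeats, no test between tissues was possible, and every statement below describes these pools. Differences between the females or the breeding stages cannot be seen, and fewer cells of a type cannot be told apart from less RNA per cell.

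As background, the ovary of a laying bird holds a graded series of follicles, each a yolk-storing oocyte wrapped in granulosa and theca cells, and growing oocytes stockpile messenger RNA for the first divisions of the embryo. The spleen filters blood through macrophage-rich red pulp and houses B and T lymphocytes in white pulp, where activated lymphocytes divide. Dividing cells of any origin draw on a common machinery, in which cyclins switch on kinases, licensing factors and polymerases copy the DNA, and spindle and kinetochore proteins part the chromosomes. In vertebrate embryos both organs also begin from mesoderm next to the body cavity, and a few transcription factors, WT1 among them, are needed for both in the mouse.

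Total counts were 24846715.5 (NextSeq) and 1345363 (MiSeq) for the ovary, against 15484468 and 1011756.5 for the spleen, so that 1 MiSeq count equalled 0.743 CPM in the ovary and 0.988 CPM in the spleen. Pairs of values below give the NextSeq library first and the MiSeq library after it, and single values give both libraries summed. Where several genes or segments are named together, each has its summed value, in the order of the names. Ratios are given as log2((ovary CPM + 1)/(spleen CPM + 1)), where positive values mean higher in the ovary. A 2-fold or 4-fold difference in a count of genes means a log2 ratio of 1 or 2 on this scale, which understates the change of genes with low values. Intervals are exact 95% intervals of the counts, and cover counting error only. Among the 13822 genes at 1 CPM or more in either tissue, the median log2 ratio was 0.26, 31.5% were at least 2-fold higher in the ovary and 21.4% at least 2-fold higher in the spleen. Every count of list members at least 2-fold higher in a tissue is to be read against these 2 shares. The median moved to 0.14 with TMM factors, because these factors shift the ratio of a well-expressed gene by -0.12. Levels of different genes were not compared, since the table gives no transcript lengths.

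The tissue labels were set beside defining genes. The lists were chosen with earlier results of these data known, so their levels are a description and no test of the labels. The shares of all genes highest in each tissue are not given here. All 13 matched oocyte genes were higher in the ovary than in any other tissue, and the transcripts of ZP3, MOS, H1FOO, BTG4 and NANOG had no count in the spleen. WEE2, an oocyte kinase that holds CDK1 in check in mammals, was at 144 CPM in the ovary and 27.2 CPM in the spleen. In the spleen, 16 of 17 matched macrophage and dendritic cell genes and 14 of 15 matched T cell and NK cell genes had their highest level of the 6 tissues. Liver genes were read more in the spleen: ALB, the main plasma protein made by hepatocytes, stood at 74.1 CPM in the ovary and 828 CPM in the spleen, against 75986 CPM in the liver, and the 14 matched hepatocyte genes reached 0.192% of the liver value in the ovary and 1.21% in the spleen by their medians.

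By their known roles, 10 of the 27 shared segments were assigned to cell division. Of these, 9 belong to the 7 proliferation lists described further on, whose 120 matched genes were 0.805% of all segments and held 33.3% of the shared ones, and CENPN was assigned by hand. Members of these lists were chosen with earlier results of these data known, so the 2 shares are a description and no test of enrichment. PLK1, CCNA2, RRM2, DLGAP5, SGO1, FOXM1, MELK, KIF23, CEP55 and CENPN all reached at least 10 CPM in both tissues, and none exceeded 0.894 CPM in brain, liver, muscle or blood. Under the 3 other scalings given further on, RRM2 and DLGAP5 met the rule in each, and PLK1, CCNA2, SGO1 and MELK in none. FOXM1 failed it with median-of-ratios factors, and KIF23, CEP55 and CENPN met it only with totals without the 50 most abundant genes. In 7 of the 10 the ovary level was at least 2-fold above that of the spleen, and in KIF23, CENPN and CEP55 it was within 2-fold.

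PLK1, the polo-like kinase that drives entry into mitosis and centrosome maturation, had 189 and 150.1 CPM in the ovary, against 14.1 and 18.3 CPM in the spleen. Its level was 13.1-fold (95% interval 11.4 to 14.9) higher in the ovary, the widest gap of the group, with log2 ratios of 3.66 on NextSeq and 2.97 on MiSeq. CCNA2, the cyclin of S phase and early mitosis, had 113 and 133 CPM in the ovary, against 19.8 and 16.3 CPM in the spleen. RRM2, the small subunit of ribonucleotide reductase, which makes deoxyribonucleotides for replication, had 212 and 198 CPM in the ovary, against 34.5 and 34.1 CPM in the spleen. The libraries of ovary and spleen did not overlap for any of these 3 genes. Between the platforms, the log2 ratio of PLK1 differed by 0.686, the largest such difference among the shared segments, where the median was 0.247.

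DLGAP5, a microtubule-binding protein of the mitotic spindle, showed a log2 ratio of 2.85 on the summed counts, from 262 and 252 CPM in the ovary and 35.5 and 34.1 CPM in the spleen. SGO1, which protects the cohesin that holds sister chromatids together, had 126 and 110.4 CPM in the ovary, against 30.7 and 25.7 CPM in the spleen. FOXM1, a transcription factor that switches on late cell cycle genes, had 55.6 and 73.6 CPM in the ovary, against 23.8 and 19.8 CPM in the spleen. For MELK, a kinase linked to proliferating progenitors, the values were 38.2 and 39.4 CPM in the ovary and 16.0 and 13.3 CPM in the spleen. These 4 again separated the tissues in both libraries, by 4.12-fold (95% interval 3.75 to 4.53) for SGO1 and 2.41-fold (95% interval 2.10 to 2.77) for MELK.

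The 3 remaining division genes stayed within 2-fold. KIF23, a kinesin of the central spindle, leaned to the ovary, with 19.4 and 21.6 CPM in the ovary, against 11.7 and 12.8 CPM in the spleen. CENPN, which helps build the kinetochore on centromeric chromatin, had 11.7 and 20.4 CPM in the ovary, against 11.9 and 17.8 CPM in the spleen, and its ratio of 0.994 had an interval of 0.829 to 1.19, so no difference was detectable at this depth. CEP55, which directs the last cut between daughter cells, was the only one of the 10 higher in the spleen on both platforms, with 16.5 and 13.01 CPM in the ovary against 23.8 and 21.7 CPM in the spleen.

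**Figure D1:**
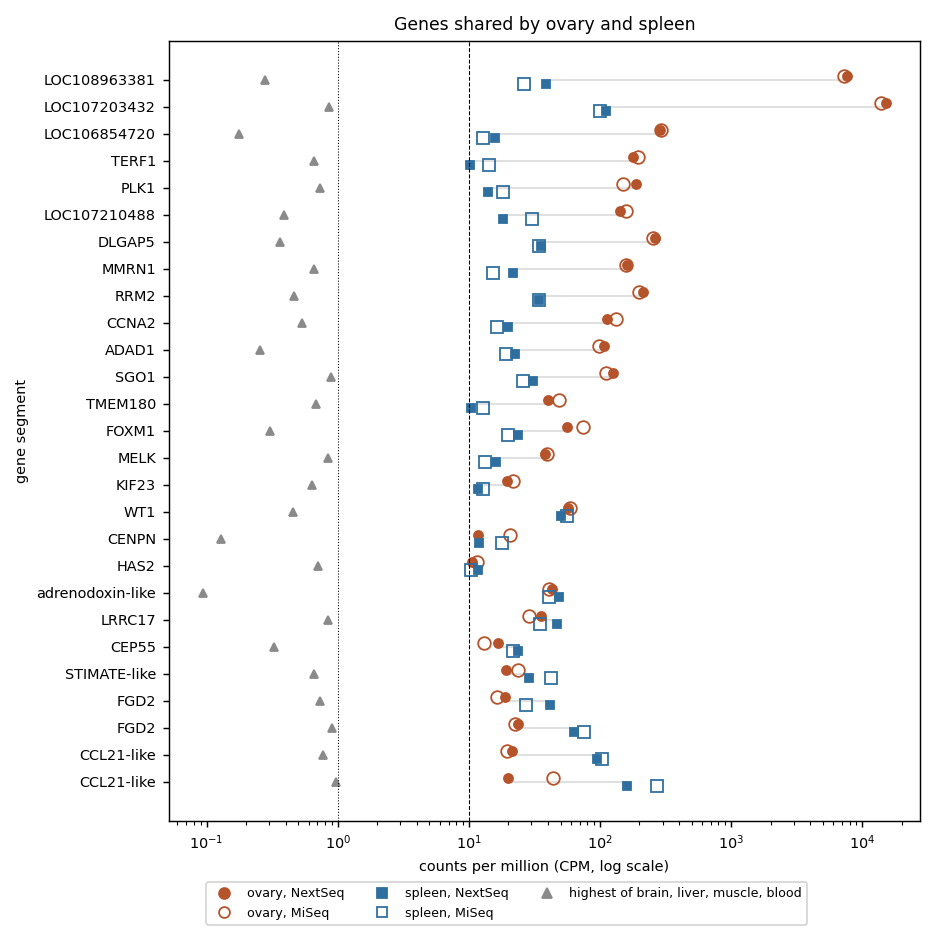
CPM (log scale) of the 27 shared segments in the ovary libraries (circles) and the spleen libraries (squares), NextSeq filled and MiSeq open, with the highest summed level among brain, liver, muscle and blood as grey triangles. Dashed and dotted lines mark 10 and 1 CPM, and the segments are ordered by log2 ratio, from 7.62 at the top to -2.93 at the bottom.

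WT1, a zinc finger transcription factor needed for gonad and spleen formation in the mouse, was nearly even, with 57.4 and 58.7 CPM in the ovary, against 50.1 and 56.3 CPM in the spleen. Its log2 ratio was 0.18, and it was at 0.457 CPM in the brain, 0.0141 CPM in the liver, 0.0234 CPM in muscle and 0 in blood. An adrenodoxin-like protein, named after the iron-sulfur protein that passes electrons to mitochondrial steroid-making enzymes, had 43.2 and 40.9 CPM in the ovary, against 48.5 and 40.5 CPM in the spleen. No other tissue held more than 0.0935 CPM of it. The ratio of WT1 was 1.14 (95% interval 1.04 to 1.24) and that of the adrenodoxin-like protein 0.897 (95% interval 0.819 to 0.984), and for the adrenodoxin-like protein the sign changed between platforms (log2 ratio -0.16 on NextSeq and 0.01 on MiSeq). ADAD1, an RNA-binding protein known from male germ cells in the mouse, stood further apart, with 107 and 98.9 CPM in the ovary against 22.4 and 19.3 CPM in the spleen.

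Other genes of steroid synthesis were higher in the ovary. STAR, which moves cholesterol into mitochondria, had 109 and 137 CPM in the ovary, against 12.3 and 11.9 CPM in the spleen, and missed the shared rule only through 1.03 CPM in blood. HSD3B1, matched to a hydroxysteroid dehydrogenase of the delta-isomerase type, was at 118 CPM in the ovary and 5.06 CPM in the spleen. CYP11A1, the side-chain cleavage enzyme that takes electrons from adrenodoxin, was at 3.57 CPM in the ovary and 0.0606 CPM in the spleen. CYP17A1 was at 96.6 CPM in the ovary and had no count in the spleen, at least 531-fold higher in the ovary when 3 counts over the pooled spleen libraries are taken as the floor.

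The 4 shared segments at least 2-fold higher in the spleen were those of a chemokine and of FGD2. The 2 segments of a CCL21-like chemokine, in mammals the lymphoid-tissue signal that draws CCR7-bearing T cells and dendritic cells, had 19.7 and 43.9 CPM and 21.4 and 19.7 CPM in the ovary libraries, against 159.5 and 272 CPM and 95.6 and 103 CPM in the spleen libraries. They were 7.93-fold (95% interval 7.23 to 8.70) and 4.505-fold (95% interval 4.09 to 4.97) higher in the spleen. Its receptor CCR7 was at 0.191 CPM in the ovary and 33.9 CPM in the spleen. The 2 segments of FGD2, an exchange factor for the GTPase CDC42 found in antigen-presenting cells of the mouse, were at 23.5 and 18.9 CPM in the ovary, against 63.8 and 40.6 CPM in the spleen. Segments of the same name may be near-identical copies or pieces of 1 gene between which reads were split, so their single values are uncertain. All 4 had their highest level outside ovary and spleen in the liver, between 0.735 and 0.975 CPM, close to the 1 CPM limit. With segments of the same name summed, the liver held 1.75 CPM of CCL21-like and 1.64 CPM of FGD2, so neither met the rule, and none of the 4 segments met it under the 3 other scalings. In all, 23 names met the rule when summed: TMEM180 was lost as well, with 76.6 CPM in the liver over its 2 segments, and a cytochrome P450 2J6-like protein was gained. That protein, at 19.7 CPM in the ovary and 79.5 CPM in the spleen over 4 segments, was then the 1 name at least 2-fold higher in the spleen.

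MMRN1, multimerin-1, a platelet and vessel-wall protein in humans, was on the other side, with 160.3 and 159 CPM in the ovary against 21.9 and 15.3 CPM in the spleen. The matrix genes were nearly level: HAS2, a synthase of hyaluronan, had 10.6 and 11.5 CPM in the ovary, against 11.8 and 10.4 CPM in the spleen, with an interval of the ratio that spanned 1 (0.751 to 1.09). LRRC17, a secreted leucine-rich repeat protein, was at 34.9 CPM in the ovary and 46.6 CPM in the spleen. A STIMATE-like protein, named after a regulator of store-operated calcium entry, was at 19.5 CPM in the ovary and 29.8 CPM in the spleen, and TMEM180, a transmembrane protein, at 40.81 CPM in the ovary and 10.5 CPM in the spleen.

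TERF1, which binds the repeats of telomeres and guards chromosome ends, had 177 and 193 CPM in the ovary, against 10.3 and 14.3 CPM in the spleen, 16.95-fold (95% interval 14.5 to 19.8) higher in the ovary. The 4 uncharacterized segments leaned to the ovary as well. LOC107203432 reached 15220.2 and 13835 CPM in the ovary, against 112 and 99.8 CPM in the spleen, and LOC108963381 7656 and 7264 CPM in the ovary, against 38.5 and 26.2 CPM in the spleen. LOC106854720 was at 289 CPM in the ovary and 15.7 CPM in the spleen and LOC107210488 at 142 CPM in the ovary and 18.8 CPM in the spleen.

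The spleen level of LOC107203432 was 0.733% of its ovary level and that of LOC108963381 0.494%. For comparison, ZP2, an egg coat gene, was in the spleen at 0.00732% of its ovary level, with 1.5 counts, while the 13 oocyte genes ranged up to 38.9% with a median of 0.0586%. Across the 56 genes at 100 CPM or more in the ovary and under 1 CPM in brain, liver, muscle and blood, the median spleen level was 0.133% of the ovary level (quartiles 0.0130% and 2.65%), 33 of them were under 1 CPM in the spleen and 12 at 10 CPM or more. Those 12 meet the shared rule by definition, and LOC107203432 and LOC108963381 are among them. The 56 genes are therefore not an independent comparison for these segments. The share of ovary RNA in the spleen pool that these values would allow was not tested.

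In all, 15 of the 27 shared segments were at least 2-fold higher in the ovary, 4 at least 2-fold higher in the spleen and 8 in between, with a median log2 ratio of 1.23. Of all 7853 genes at 10 CPM or more in both tissues, 59.8% were within 2-fold. The sign of the ratio was the same on both platforms in 24 of 27, and the exceptions were the adrenodoxin-like protein, HAS2 and CENPN. All 27 met the rule on NextSeq counts alone and 17 on MiSeq counts alone.

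The rule itself was sensitive to scaling. With TMM factors (2.23 for the ovary and 2.05 for the spleen, between 0.364 and 0.567 for liver, muscle and blood) 12 genes met it, 8 of them among the 27. With median-of-ratios factors 11 met it, 7 among the 27, and with totals without the 50 most abundant genes of each tissue 16 met it, 14 among the 27. WT1, the adrenodoxin-like protein, RRM2, DLGAP5 and LOC108963381 met the rule under all 3 scalings, and the sign of the log2 ratio was kept for all 27 in each.

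Near the limits, TMEM180 and TERF1 had 10.5 CPM in the spleen and HAS2 10.7 CPM in the ovary just inside the rule, and a CCL21-like segment had 0.975 CPM in the liver. Just outside, among others, were CCNB3 (170.1 CPM in the ovary and 34.2 CPM in the spleen, with 1.02 CPM in the brain), the kinesin KIF14 (1.07 CPM in the brain), the germ line gene MAEL (8.18 CPM in the spleen) and SKA1 (8.27 CPM in the spleen). Of those named just outside, only CCNB3 belongs to the 7 proliferation lists. Other genes lay there too. Examples were mucin-1 (1.19 CPM in blood), a spinster homolog 3 (1.03 CPM in blood) and c-Rel (8.95 CPM in the ovary and 1.17 CPM in the brain). At 1 CPM in place of 10 CPM, 185 of the 14908 segments were present in ovary and spleen alone, 100 of them higher in the ovary. The median log2 ratio of all genes at 1 CPM or more in either tissue, 0.26, leaned to the ovary as well. No lean particular to the 185 can be read from that count.

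Set beside the other pairs of tissues under the same rule, ovary and spleen came after ovary and brain, which shared 111 genes (0.745%). Spleen and brain shared 10 (0.0671%), spleen and blood 7 (0.047%) and ovary and muscle 6 (0.0402%). Ovary and liver, spleen and liver, and brain and liver shared 3 each (0.0201%), brain with muscle and brain with blood 2 each (0.0134%), ovary with blood and muscle with blood 1 each (0.00671%), and the other 3 pairs none. Across all genes the levels of ovary and spleen had a Spearman rho of 0.716 over the 14908 segments, which are not independent replicates, against 0.465 for the least alike pair of tissues.

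The cell cycle was then followed through 7 lists with 140 genes, of which 120 were matched by protein name. As stated above, the lists were chosen with earlier results of these data known, so their shares are descriptive. Every matched gene reached 1 CPM in at least 1 of the 2 tissues and 118 reached it in both. The median log2 ratio was 1.48, against 0.26 for all genes. In the ovary 74 of 120 (61.7%) were at least 2-fold higher, where 31.5% of all genes were, and in the spleen 10 of 120 (8.33%), where 21.4% of all genes were. The summed level of the 120 genes was 19512 CPM in the ovary, 6281 CPM in the spleen, 1627 CPM in the brain, 1393 CPM in blood, 517 CPM in the liver and 313 CPM in muscle.

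Ovary and spleen were the 2 highest of the 6 tissues for 94 of these 120 genes (78.3%), a position that they held for 25% of the 14561 genes at 1 CPM or more in any tissue. Within the 120, the ovary had the highest level of all tissues for 92 and the spleen for 19. The shares of all genes highest in each tissue are not given here, so these counts are a description only.

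**Figure D2:**
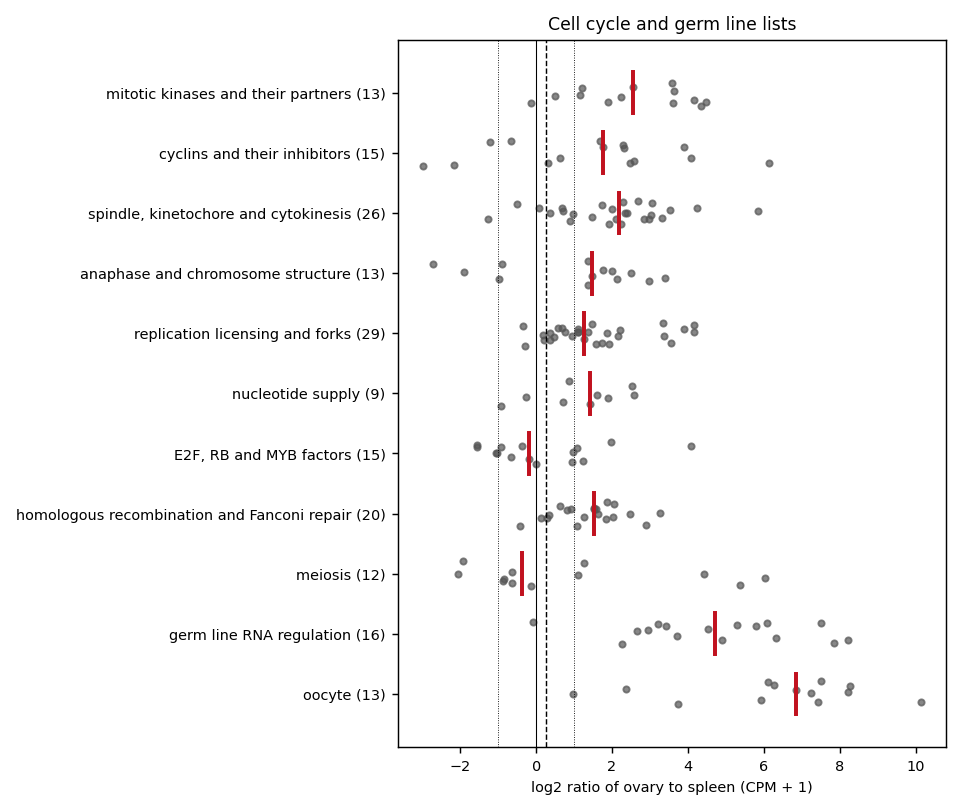
Log2 ratio of ovary to spleen of each matched gene at 1 CPM or more in either tissue (points), by list, with the number of genes in brackets and the list median as a red bar. The dashed line is the median of all genes (0.26) and dotted lines mark 2-fold, and the medians run from 6.84 for the oocyte list to -0.38 for the meiosis list.

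Mitotic kinases showed the highest median of the 7 lists, 2.56, with 11 of 13 matched members at least 2-fold higher in the ovary and none at least 2-fold higher in the spleen. BUB1B, the checkpoint protein that holds the cell until every kinetochore is attached, had 1190.5 and 1200.4 CPM in the ovary, against 51.9 and 55.8 CPM in the spleen. AURKA, the kinase of the spindle poles, had 478 and 473 CPM in the ovary, against 23.0 and 19.8 CPM in the spleen. CDK1, the kinase that cyclin B turns on to start mitosis, had 354 and 351 CPM in the ovary, against 94.0 and 95.9 CPM in the spleen. The gap was 22.8-fold (95% interval 21.3 to 24.5) for BUB1B and 3.76-fold (95% interval 3.56 to 3.97) for CDK1. MASTL, which keeps phosphatases off during mitosis, was at 439 CPM in the ovary and 23.9 CPM in the spleen. WEE1, the kinase that restrains CDK1, was level, at 32.3 CPM in the ovary and 35.3 CPM in the spleen, and BUB1 was at 108 CPM in the ovary and 75.4 CPM in the spleen.

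Among the cyclins and their inhibitors members lay on both sides. CCNB2, a cyclin of mitosis, had 983 and 978 CPM in the ovary, against 57.7 and 53.4 CPM in the spleen, and CCNE2, which acts at the start of S phase, was at 171 CPM in the ovary and 10.6 CPM in the spleen. CCNA1, known for its part in meiosis of germ cells in the mouse, was at 149 CPM in the ovary and 1.15 CPM in the spleen. On the other side, CCND1, the cyclin through which growth signals start the cycle, had 3.96 and 1.86 CPM in the ovary, against 37.4 and 35.6 CPM in the spleen, 9.67-fold (95% interval 7.82 to 12.1) higher in the spleen. CDKN1B, which keeps cells at rest, was at 12.2 CPM in the ovary and 58.3 CPM in the spleen, with 110 CPM in blood. CDK6, a partner of the D cyclins, was at 17.7 CPM in the ovary and 42.4 CPM in the spleen. These 3 were the only members of the list at least 2-fold higher in the spleen, against 9 of 15 in the ovary, and CCND2 (17.6 CPM in the ovary and 28.4 CPM in the spleen) and CCND3 (26.6 CPM in the ovary and 21.4 CPM in the spleen) stayed within 2-fold. The 3 were 20% of the list, near the 21.4% of all genes, and the 9 were 60%, against 31.5% of all genes.

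Spindle, kinetochore and cytokinesis genes had a median of 2.18, with 18 of 26 matched members at least 2-fold higher in the ovary. KIF2C, a kinesin that removes wrongly attached microtubules, was at 569 CPM in the ovary and 29.1 CPM in the spleen, and ECT2, which places the cleavage furrow, at 527 CPM in the ovary and 44.5 CPM in the spleen. BIRC5, survivin of the chromosomal passenger complex, had the highest ratio of the list, with 115 and 81.8 CPM in the ovary against 16.5 counts over both spleen libraries. These values are those of 1 of its 2 matched segments, named as a 5.1-like protein. The other segment is not given here, so the level of BIRC5 as a whole stays uncertain. KIF11, the motor that pushes spindle poles apart, was level at 227 CPM in the ovary and 216 CPM in the spleen, and ASPM, of the spindle poles, was within 2-fold at 217 CPM in the ovary and 169.6 CPM in the spleen. CENPA, the histone of centromeres, was the 1 member at least 2-fold higher in the spleen, at 1.604 CPM in the ovary and 5.27 CPM in the spleen.

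Among the genes of anaphase and chromosome structure, 4 leaned to the spleen. MKI67, the Ki-67 protein that coats mitotic chromosomes and is the usual stain for dividing cells, had 94.0 and 93.7 CPM in the ovary, against 355 and 339 CPM in the spleen, 3.77-fold (95% interval 3.60 to 3.95) higher in the spleen. SMC2, a condensin subunit, had 20.99 and 16.7 CPM in the ovary, against 144 and 122 CPM in the spleen. TOP2A, which untangles DNA, had 109.7 and 119 CPM in the ovary, against 221 and 195 CPM in the spleen, and SMC4, the partner of SMC2, 166 and 142 CPM in the ovary, against 309 and 269 CPM in the spleen. In all 4 genes both spleen libraries were above both ovary libraries. The regulators of anaphase in the same list pointed the other way: FBXO5, an inhibitor of the anaphase-promoting complex, was at 193 CPM in the ovary and 17.5 CPM in the spleen, PTTG1, securin, at 354 CPM in the ovary and 44.2 CPM in the spleen and CDC20, an activator of the complex, at 324 CPM in the ovary and 73.1 CPM in the spleen. The list median was 1.48, with 9 of 13 (69.2%) at least 2-fold higher in the ovary and 2 (15.4%) in the spleen. Of all genes, 31.5% and 21.4% were.

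Replication genes had a median of 1.27, 18 of 29 at least 2-fold higher in the ovary and none in the spleen. CDC6 and CDT1, which load the helicase at origins, stood well apart, on few spleen counts. CDC6 was at 36.6 CPM in the ovary and 1.09 CPM in the spleen (18 counts), with 12.1 CPM in blood. CDT1 was at 23.4 CPM in the ovary and 0.637 CPM in the spleen (10.5 counts). GMNN, geminin, which blocks CDT1 and so prevents another round of copying, was at 327 CPM in the ovary and 30.8 CPM in the spleen. MCM10, which helps start the forks, was at 146 CPM in the ovary and 7.27 CPM in the spleen for 1 of its 2 segments, and ORC1 and ORC6, of the complex that marks origins, were near level, at 58.6 and 41.3 CPM in the ovary, against 50.3 and 31.9 CPM in the spleen. Subunits of the MCM helicase were unequal among themselves. MCM4 was at 198 CPM in the ovary and 175 CPM in the spleen and MCM6 at 69.3 CPM in the ovary and 85.4 CPM in the spleen, whereas MCM7 was at 20.8 CPM in the ovary and 0.849 CPM in the spleen. The subunits form 1 complex, and the matched MCM7 segment had only 14 counts in the spleen. PCNA, the sliding clamp, had 119 and 151 CPM in the ovary, against 86.5 and 101 CPM in the spleen.

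Nucleotide supply gave 5 of 9 genes at least 2-fold higher in the ovary, including TYMS, which makes thymidylate, at 209 CPM in the ovary and 35.5 CPM in the spleen, and none in the spleen, where SAMHD1, an enzyme that breaks deoxyribonucleotides down, leaned, at 41.4 CPM in the ovary and 80.0 CPM in the spleen. The E2F, RB and MYB factors were the 1 list of the 7 without a lean to the ovary. Its median was -0.19, which turned to 0.07 on MiSeq counts alone, with 4 of 15 genes (26.7%) at least 2-fold higher in each tissue. Of all genes, 31.5% were in the ovary and 21.4% in the spleen. MYBL2, the MYB protein of dividing cells, had 422 and 417 CPM in the ovary, against 23.8 and 25.2 CPM in the spleen. RBL1, a pocket protein of the RB family, was at 23.9 CPM in the ovary and 73.0 CPM in the spleen, E2F8, an E2F that represses its targets, at 43.1 CPM in the ovary and 90.3 CPM in the spleen, TFDP1, the DNA-binding partner of E2Fs, at 30.05 CPM in the ovary and 62.3 CPM in the spleen and MYB, a factor of blood cell progenitors, at 2.46 CPM in the ovary and 9.15 CPM in the spleen. TFDP1 and MYB were higher still in blood, at 279 and 12.6 CPM.

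Genes of repair by homologous recombination had a median of 1.53, 13 of 20 genes at least 2-fold higher in the ovary and none in the spleen. PALB2, which brings repair proteins to broken DNA, had the lowest ratio of the list, at 67.4 CPM in the ovary and 91.2 CPM in the spleen. Of 15 matched meiosis genes, 12 reached 1 CPM in either tissue, with a median of -0.38, 5 (41.7%) at least 2-fold higher in the ovary and 2 (16.7%) in the spleen. Of all genes, 31.5% and 21.4% were. SYCP2 and SMC1B, of the chromosome axis and the meiotic cohesin, were at 105 and 59.4 CPM in the ovary, against 0.606 and 0.455 CPM in the spleen. SYCP1 was level at 46.2 CPM in the ovary and 50.7 CPM in the spleen, and MEI1, needed for meiotic recombination in the mouse, was at 0.993 CPM in the ovary and 7.37 CPM in the spleen.

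Most genes of germ line RNA regulation, among them the piRNA pathway that silences transposons, were far higher in the ovary. Their median was 4.71, with 15 of 16 at least 2-fold higher. A few members were nonetheless read in the spleen. TDRD1, a scaffold of piRNA granules, had 499 and 428 CPM in the ovary, against 11.8 and 9.39 CPM in the spleen. TDRD5 had 101 and 74.7 CPM in the ovary, against 15.2 and 12.8 CPM in the spleen, and DDX4, the vasa helicase, 103 and 85.1 CPM in the ovary, against 8.33 and 13.8 CPM in the spleen. MAEL was at 42.6 CPM in the ovary and 8.18 CPM in the spleen. Outside the 2 tissues, DDX4 was at most 3.33 CPM and MAEL at most 0.381 CPM, both in the brain. By contrast PIWIL1 and ASZ1 of the same pathway had no count in the spleen, with 54.0 and 182 CPM in the ovary. TDRD7 was level, at 144 CPM in the ovary and 151 CPM in the spleen.

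Transcription factors known to build the gonad or the spleen were read in a list of 28, of which 23 were matched. Of these, 14 reached 1 CPM in both tissues, where 78.9% of all genes did, and the members fell to either side: 12 were at least 2-fold higher in the ovary, 9 at least 2-fold higher in the spleen, and 2 in between, WT1 among them. The 12 were 52.2% and the 9 were 39.1% of the matched list, against 31.5% and 21.4% of all genes.

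On the ovary side, GATA4, a factor of granulosa cells, had 49.5 and 49.8 CPM in the ovary, against 0.291 and 0 CPM in the spleen. EMX2, needed for the early gonad in the mouse, had 114 and 139 CPM in the ovary and no count in the spleen, at least 633-fold higher in the ovary. NR5A1, the steroidogenic factor, which switches on steroid enzymes and in the mouse is needed for gonads and adrenals, had 88.4 and 73.6 CPM in the ovary, against 6.59 and 10.9 CPM in the spleen. The spleen thus held NR5A1 at 6.85 CPM, while brain, liver, muscle and blood had at most 0.152 CPM. SALL4, a factor of stem and germ cells, was at 80.5 CPM in the ovary and 3.36 CPM in the spleen. LHX9 and CBX2, both needed for gonad formation in the mouse, were at 4.56 and 9.77 CPM in the ovary with no count in the spleen.

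On the spleen side, TLX1 and NKX2-5, homeobox factors without which the mouse spleen is lost or small, separated the tissues fully. TLX1 had 0.563 and 1.11 CPM in the ovary, against 13.7 and 11.9 CPM in the spleen, and NKX2-5 had 0.0402 and 0 CPM in the ovary, with 1 count, against 11.5 and 9.88 CPM in the spleen. Both were under 1 CPM in brain, liver, muscle and blood. TCF21, a mesoderm factor that also controls the early gonad in the mouse, had 3.32 and 3.34 CPM in the ovary, against 29.7 and 31.1 CPM in the spleen. SPIC, the factor of iron-recycling red pulp macrophages in the mouse, had 6.98 and 10.4 CPM in the ovary, against 235 and 266 CPM in the spleen, 33.1-fold (95% interval 28.5 to 38.4) higher in the spleen. NR2F2, a factor of veins and stroma, was at 63.5 CPM in the ovary and 263 CPM in the spleen, and HHEX, a homeobox factor, at 5.002 CPM in the ovary and 26.7 CPM in the spleen, with 24.4 CPM in the liver. WT1 was the 1 regulator of the list that was within 2-fold between ovary and spleen and under 1 CPM in every other tissue.

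**Figure D3:**
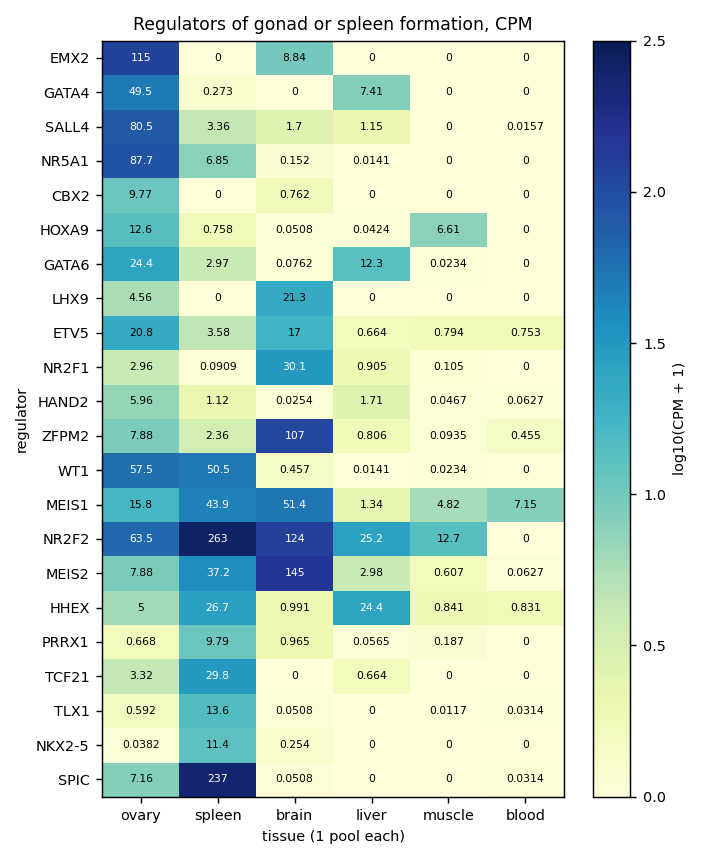
Summed CPM of matched regulators in the 6 tissues, colored by log10(CPM + 1) and ordered by log2 ratio of ovary to spleen, where rows can be compared across tissues but not with each other. WT1 is dark in ovary (57.5 CPM) and spleen (50.5 CPM) alone, EMX2 and GATA4 stand at the ovary end and SPIC, NKX2-5 and TLX1 at the spleen end.

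Signals that pattern these organs differed in the same 2 pools. Retinoic acid is made from retinal by ALDH1A enzymes. ALDH1A3 had 79.1 and 90.7 CPM in the ovary, against 2.71 and 1.98 CPM in the spleen, ALDH1A2 38.8 and 43.1 CPM in the ovary, against 11.6 and 8.90 CPM in the spleen, and DHRS3, which returns retinal to retinol, was at 31.8 CPM in the ovary and 0.818 CPM in the spleen. Of 16 genes of retinoid and prostaglandin signaling at 1 CPM or more in either tissue, 9 (56.25%) were at least 2-fold higher in the ovary and 2 (12.5%) in the spleen. Of all genes, 31.5% and 21.4% were. PTGS2, the inducible cyclooxygenase, was near level, at 41.1 CPM in the ovary and 47.8 CPM in the spleen. So was PTGDS, a prostaglandin D synthase, at 231 CPM in the ovary and 241 CPM in the spleen. Other prostaglandin enzymes of the list are not reported here. The receptor PTGER4 was at 0.764 CPM in the ovary and 11.9 CPM in the spleen.

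Over the whole table, the genes furthest apart were counted next. Counting genes at 10 CPM or more in either tissue, 1723 of 10819 (15.9%) were at least 4-fold higher in the ovary and 1101 (10.2%) at least 4-fold higher in the spleen. The ovary had the highest level of the 6 tissues for 1290 of the 1723 (74.9%) and the brain for 306 (17.8%), and the spleen had the highest level for 870 of the 1101 (79.0%). By the way these genes were chosen, the spleen could not be highest for any of the 1723, nor the ovary for any of the 1101. High shares are therefore partly built in. The shares of all genes highest in each tissue are not given here, so these counts are a description only. In the spleen 437 of the 1723 were under 1 CPM and 71 had no count, and in the ovary 152 of the 1101 were under 1 CPM and 4 had no count.

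ZP2, a protein of the egg coat that binds sperm, had 1248 and 1118 CPM in the ovary, against 0.0969 and 0 CPM in the spleen, a log2 ratio of 10.15 that rests on 1.5 counts in the spleen. MOS, the kinase that arrests the mature egg, had 307 and 347 CPM in the ovary and no count in the spleen, at least 1701-fold higher in the ovary. BRDT, a bromodomain protein of germ cells, was at 374 CPM in the ovary and 0.0909 CPM in the spleen, BIRC7, an inhibitor of apoptosis, at 500.2 CPM in the ovary and 0.242 CPM in the spleen and ESRP1, an epithelial splicing factor, at 324 CPM in the ovary and 0.0606 CPM in the spleen. A protein like LRP2, the multiligand receptor megalin, had 3814 and 3153 CPM in the ovary, against 4.04 and 3.95 CPM in the spleen. A segment of a perilipin-3-like protein, of a family that coats lipid droplets, was at 408 CPM in the ovary with no count in the spleen. It is 1 of 4 segments of that name, and the others are not given here.

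Some of these 15 were not ovary genes alone. MAP1B, a microtubule protein of neurons, was at 339.9 CPM in the ovary and 0.0909 CPM in the spleen but at 887 CPM in the brain, and a VAT1-like protein at 767 CPM in the ovary and 0.667 CPM in the spleen with 302 CPM in the brain. C14orf37 was at 500.2 CPM in the ovary and 0.606 CPM in the spleen, with 182 CPM in the brain. By contrast COL4A4, a basement membrane collagen, was at 596 CPM in the ovary, 0.637 CPM in the spleen and at most 7.2 CPM elsewhere. SYPL1, a synaptophysin relative, was at 594 CPM in the ovary, 0.212 CPM in the spleen and at most 0.915 CPM elsewhere. The uncharacterized segments LOC107200817, LOC102060483 and LOC103813859 made up the rest, at 1256, 642 and 444 CPM in the ovary, against 0.576, 0 and 0.394 CPM in the spleen. Their highest levels in brain, liver, muscle or blood were 1.88, 0 and 0.432 CPM.

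Among genes at 10 CPM or more in both tissues, 535 of 7853 (6.81%) were at least 4-fold higher in the ovary and 411 (5.23%) at least 4-fold higher in the spleen. The 10 that leaned most to the ovary included LOC108963381 and LOC107203432, given above. The 2 segments of DAB2, an adaptor that carries lipoprotein receptors into clathrin-coated pits, were at 4853 and 2119 CPM in the ovary, against 64.1 and 25.2 CPM in the spleen. The segment of VLDLR among the 10, the oocyte receptor for yolk precursors in birds, had 1056 and 1027 CPM in the ovary, against 32.5 and 44.97 CPM in the spleen, and the 2 segments of that name summed to 1929 CPM in the ovary and 62.8 CPM in the spleen. PARP14, an ADP-ribosyl transferase, was at 2897 CPM in the ovary and 66.7 CPM in the spleen, endomucin, a sialomucin of vessels in the mouse, at 612 CPM in the ovary and 10.3 CPM in the spleen, the inaD-like polarity protein at 536 CPM in the ovary and 12.5 CPM in the spleen and a regulatory B subunit of protein phosphatase 2A at 430.0 CPM in the ovary and 10.4 CPM in the spleen. TDRD1, given above, completed the 10.

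**Figure D4:**
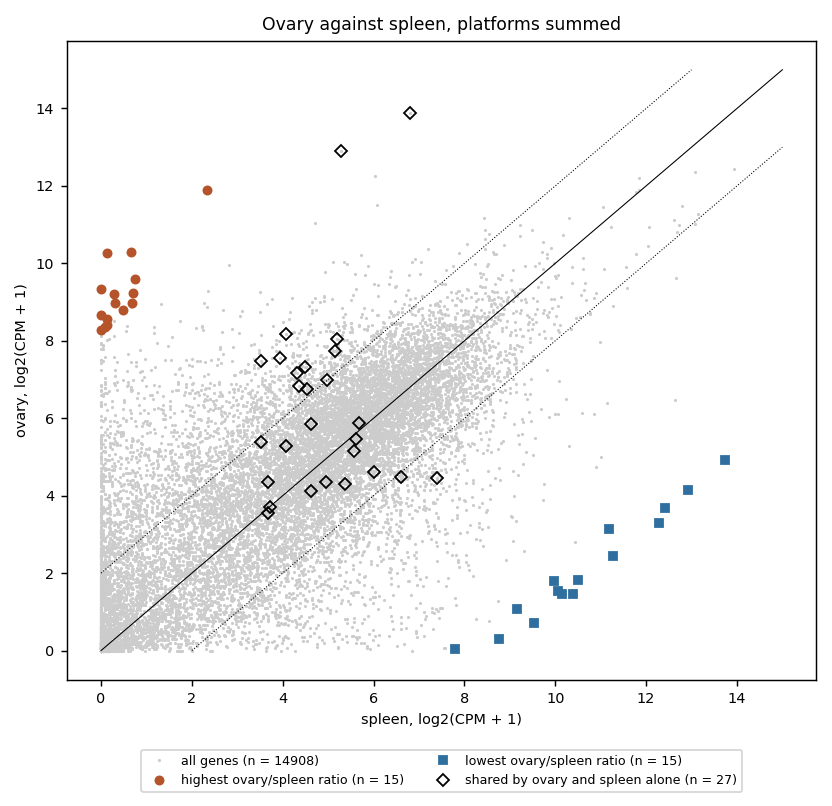
Log2(CPM + 1) of every segment in the ovary (y axis) and the spleen (x axis), with the 15 highest ratios as circles, the 15 lowest as squares and the 27 shared segments as open diamonds. The solid line marks equal levels and dotted lines 4-fold, and LOC107203432 and LOC108963381 lie far above the other shared segments, at 15149 and 7636 CPM in the ovary against 111 and 37.7 CPM in the spleen.

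At the spleen end, 10 of the 15 lowest ratios belonged to segments of 1 immunoglobulin name. The 11 segments named as an immunoglobulin lambda V-1 region summed to 76.6 CPM in the ovary and 36833 CPM in the spleen, with log2 ratios between -9.00 and -7.62. Segments that share a name may also share sequence, so reads may have been split among them. The immunoglobulin J chain, which joins secreted IgM and IgA, had 11.7 and 13.01 CPM in the ovary, against 5428 and 5502 CPM in the spleen. The brain, set beside them, held 8.87 CPM of the J chain and 28.4 CPM of the most abundant lambda segment, which was at 29.1 CPM in the ovary and 13589 CPM in the spleen. MARCO, a scavenger receptor of spleen macrophages, had 0.241 and 0 CPM in the ovary, against 431 and 509 CPM in the spleen. An epidermal differentiation-specific protein-like segment was at 0.630 CPM in the ovary and 735 CPM in the spleen, a CXCL2-like chemokine at 0.0191 CPM in the ovary and 222 CPM in the spleen, and ovocalyxin-32, an eggshell matrix protein in the chicken, at 7.79 CPM in the ovary and 2328 CPM in the spleen, with 388 CPM in the liver. The J chain and CXCL2-like values are each those of 1 of 2 segments of that name, and the epidermal value that of 1 of 4.

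At 10 CPM or more in both tissues, the lowest ratios after the J chain and immunoglobulin segments were as follows. The 2 segments of the MHC class II gamma (invariant) chain, which chaperones class II molecules, were at 87.3 and 30.8 CPM in the ovary, against 6321 and 2056 CPM in the spleen. VCAM1, an adhesion molecule for leukocytes, had 25.7 and 30.1 CPM in the ovary, against 1918 and 1898 CPM in the spleen. CYBB, the oxidase of phagocytes, was at 10.1 CPM in the ovary and 522 CPM in the spleen, C1QC, of the first complement component, at 14.9 CPM in the ovary and 543 CPM in the spleen, TGFBI, a matrix adhesion protein, at 18.7 CPM in the ovary and 858 CPM in the spleen and a CCL3-like chemokine at 13.9 CPM in the ovary and 846 CPM in the spleen.

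By cell type, every one of the 16 macrophage and dendritic cell genes at 1 CPM or more was at least 2-fold higher in the spleen, with a median log2 ratio of -4.67. CSF1R, the receptor for macrophage growth factor, was nearest to even, with 174 and 177 CPM in the ovary against 508 and 492 CPM in the spleen. T cell and NK cell genes had a median of -5.19, with 13 of 14 at least 2-fold higher in the spleen. CD3E was at 0.592 CPM in the ovary and 131 CPM in the spleen, while CD247, a signaling chain of the same receptor, was level at 16.8 CPM in the ovary and 14.5 CPM in the spleen. B cell genes had a median of -4.45, with 9 of 11 at least 2-fold higher in the spleen, such as PAX5, the B cell identity factor, at 0.267 CPM in the ovary and 124 CPM in the spleen. EBF1, an early B cell factor, was the 1 member at least 2-fold higher in the ovary: its matched segment was at 8.27 CPM in the ovary and 1.64 CPM in the spleen, but its 2 segments summed to 12.6 CPM in the ovary and 30.5 CPM in the spleen. The summed level of the 15 T cell and NK cell genes was 47.9 CPM in the ovary and 805 CPM in the spleen.

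Signals that organize lymphoid tissue followed, with 14 of 16 at least 2-fold higher in the spleen and a median of -2.83. CXCL12, which retains blood progenitors and lymphocytes, was at 9.24 CPM in the ovary and 95.5 CPM in the spleen, and TNFSF11, the RANK ligand, at 23.6 CPM in the ovary and 192 CPM in the spleen. IL21R, the receptor of a T cell help signal, was at 62.2 CPM in the ovary and 194 CPM in the spleen. TNFRSF11B, the decoy receptor for TNFSF11, went the other way at 25.2 CPM in the ovary and 8.76 CPM in the spleen, as did IL12B at 9.26 CPM in the ovary and 0.121 CPM in the spleen, where the spleen level was 2 counts and the ratio 76.4-fold (95% interval 20.96 to 635). The vessel and stroma genes were also on the spleen side, with 15 of 17 at least 2-fold higher there. STAB2, a scavenger receptor of sinus endothelium, had 4.11 and 3.34 CPM in the ovary, against 481 and 495 CPM in the spleen, and MYH11, smooth muscle myosin, 125 and 109 CPM in the ovary, against 1088 and 986 CPM in the spleen.

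On the ovary side, 15 of 18 granulosa and theca genes were at least 2-fold higher in the ovary, with a median of 3.46. CYP19A1, the aromatase that makes estradiol, was at 302 CPM in the ovary and 0.455 CPM in the spleen. AMH, the anti-Müllerian hormone of granulosa cells, was at 117 CPM in the ovary and 0.0606 CPM in the spleen, and FOXL2, their identity factor, at 59.5 CPM in the ovary and 0.152 CPM in the spleen. Of 9 mesothelium and epithelium genes at 1 CPM or more in either tissue, 6 were at least 2-fold higher in the ovary and 1 in the spleen, with a median of 2.14. EPCAM had 74.3 and 95.9 CPM in the ovary, against 72.9 and 69.2 CPM in the spleen, with an interval of the ratio that spanned 1 (0.965 to 1.12), CDH1 was at 45.6 CPM in the ovary and 1.55 CPM in the spleen, and MSLN, a mesothelial surface protein, at 1.97 CPM in the ovary and 24.4 CPM in the spleen. Red blood cell genes had a median of 0.06, which turned to -0.05 with TMM factors and to -0.10 for the mean of the platforms, with HBB at 1249 CPM in the ovary and 393 CPM in the spleen and 273157 CPM in blood.

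**Figure D5:**
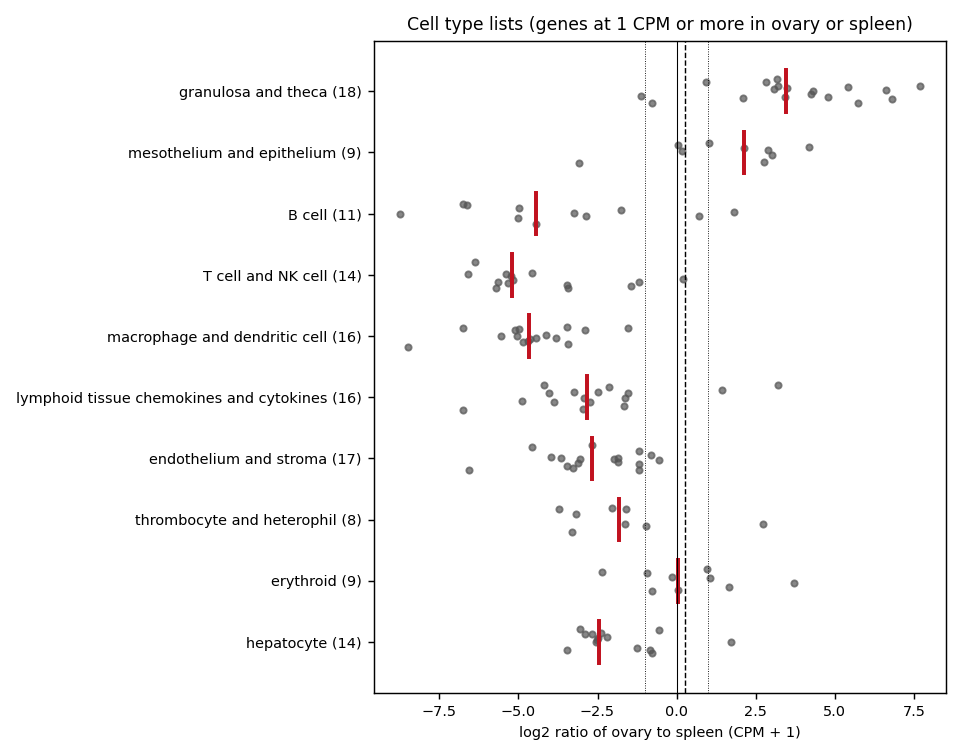
Log2 ratio of ovary to spleen of each matched marker gene at 1 CPM or more in either tissue (points), by cell type list, with the number of genes in brackets and the median as a red bar. The dashed line is the median of all genes (0.26), and the medians lie between 3.46 for granulosa and theca and -5.19 for T cell and NK cell genes.

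Some markers of other organs were read in 1 or both pools. Of the 10 matched genes of the adrenal list 4 reached 1 CPM in both tissues. Of the 9 matched genes of the pancreas list 1 did, where 78.9% of all genes did. The adrenal list, which includes the adrenodoxin-like protein, had 9 genes at 1 CPM or more in either tissue, 8 of them at least 2-fold higher in the ovary. TH, the first enzyme of catecholamine synthesis, was at 14.03 CPM in the ovary with no count in the spleen, CHGA, of secretory granules, at 175 CPM in the ovary and 0.273 CPM in the spleen, with 459 CPM in the brain, and MC2R, the corticotropin receptor, at 1.97 CPM in the ovary with no count in the spleen. Of 6 pancreas genes at 1 CPM or more, 4 were at least 2-fold higher in the ovary and 2 in the spleen, with sums over the 9 matched genes of 74.1 CPM in the ovary and 33.3 CPM in the spleen, and the lowest ratio was that of a trypsin (PRSS1), at 0.153 CPM in the ovary and 28.9 CPM in the spleen. The skeletal muscle genes summed to 61.8 CPM in the ovary and 17.1 CPM in the spleen, against 40557 CPM in muscle, and the neuron and glia genes to 114 CPM in the ovary and 47.3 CPM in the spleen, against 11656 CPM in the brain. The oviduct list had 3 genes at 1 CPM or more in either tissue, 2 of them at least 2-fold higher in the ovary, and avidin at 28.3 CPM in the ovary and 27.7 CPM in the spleen. The part of such RNA in the results was not tested.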

How the data were processed

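RNA from ovary, spleen, brain, liver, muscle and blood of 2 females was extracted separately and pooled by tissue, and each of the 6 pools was made into poly(A)-selected stranded libraries for NextSeq and for MiSeq, with longer fragments for MiSeq. The authors trimmed reads, assembled a transcriptome de novo, named its protein-coding segments by similarity to bird and human proteins, and deposited 1 table of expected counts per segment in steps of 0.5, not normalized. The submitters' processing notes list Trimmomatic 0.36 and STAR 2.5.2a. For mapping to the segments the study's methods give bwa mem instead, and which of them made the counts is not given in the sources used here. How reads shared by similar segments were assigned is not given in the sources used here.

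Counts of both platforms were summed per tissue and divided by the total count (CPM). Column totals ranged from 1011107.5 to 40798611.5. Levels carry exact Poisson intervals, and ratios exact Clopper-Pearson intervals conditional on the sum of both counts. Since each tissue was 1 pool, no p-value was computed. Genes named were the 27 that met the rule, the 15 highest and 15 lowest ratios, the 10 in each direction among genes at 10 CPM or more in both tissues, and members of 28 gene lists (402 of 518 symbols matched by protein name). Members and lists were chosen with earlier results of these data known. Other settings tried were NextSeq or MiSeq counts alone, averaging the platforms, TMM factors (edgeR 4.0.16, R 4.3.3), median-of-ratios factors, totals without the 50 most abundant genes, thinning, summing segments of 1 name, and other minimums and pseudocounts. Scripts ran in Python 3.11.15 with pandas 2.3.3 and scipy 1.17.1, and were tested on simulated data. Some members of the lists are counted but not reported by name here.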

Additional observations from a re-analysis of the deposited data

How the results depend on the processing

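The count of genes shared by ovary and spleen alone, 27 as reported, depended most on scaling and on the limits: it was 12 with TMM factors, 11 with median-of-ratios factors and 16 with totals without the 50 most abundant genes. With a minimum of 5 CPM in both tissues it was 57, with 20 CPM 14, with a limit of 0.5 CPM elsewhere 11, and with 2 CPM 53. Using 1 platform alone gave 28 genes (NextSeq) and 36 genes (MiSeq). The count of genes at least 4-fold higher in the ovary, 1723, was 1015 with median-of-ratios factors and between 1726 and 1860 with 1 platform left out. The count at least 4-fold higher in the spleen, 1101, was 794 with median-of-ratios factors and lay between 1102 and 1137 with 1 platform left out. With TMM factors the counts were 1191 for the ovary and 959 for the spleen. With a pseudocount of 5 CPM they were 1188 and 755, and without the 50 most abundant genes 1660 and 1261. The median log2 ratio of the 120 proliferation genes, 1.48, was 1.48 on NextSeq and 1.69 on MiSeq alone, 1.64 for the mean of the platforms and 1.33 with median-of-ratios factors. The number of regulators at 1 CPM or more in both tissues, 14, was 14 on NextSeq and 13 on MiSeq alone. Of the 354 named or listed genes at least 2-fold apart, between 313 (pseudocount of 5 CPM) and 354 (pseudocount of 0.1 CPM) stayed so in the same direction. EBF1 changed sign, with a log2 ratio of 1.81 for its matched segment and -1.21 when its 2 segments were summed. The cause of these shifts was not tested, other than that TMM factors raised the effective totals of ovary and spleen. No paired analysis was possible because each tissue was 1 pool and no replicate numbers are given. Depth limits the MiSeq libraries most, where 1 count was 0.743 CPM in the ovary and 0.988 CPM in the spleen.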

Other observations

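Blood cell genes other than lymphocyte and macrophage markers were also read in both pools. Of 8 matched thrombocyte and heterophil genes, 6 were at least 2-fold higher in the spleen, where 21.4% of all genes were. F13A1, a subunit of a clotting factor, was at 22.4 CPM in the ovary and 230.0 CPM in the spleen, with 231 CPM in blood. LYZ, a lysozyme that also serves as an egg protein in birds, was at 32.9 CPM in the ovary and 4.06 CPM in the spleen. GATA1, the factor of red blood cell and thrombocyte precursors, was at 8.13 CPM in the ovary and 46.3 CPM in the spleen, with 20.2 CPM in blood, so that the spleen level was the highest of the 6 tissues. HEMGN, a gene of red blood cell precursors, was at 105 CPM in the ovary and 7.09 CPM in the spleen, with 1011 CPM in blood.

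The vessel genes CDH5, which joins endothelial cells, and KDR, a receptor for vascular growth factor, were at 12.98 and 11.3 CPM in the ovary, against 332 and 119.7 CPM in the spleen. DCN, a matrix proteoglycan of connective tissue, was closer to even, at 195 CPM in the ovary and 286 CPM in the spleen. Among repair genes, BRCA1 was at 393 CPM in the ovary and 51.7 CPM in the spleen, while BRCA2 was at 232 CPM in the ovary and 182 CPM in the spleen. EXO1, a nuclease of mismatch repair and meiosis, was at 234 CPM in the ovary and 124 CPM in the spleen and at 1.57 CPM in blood and 0.788 CPM in the brain.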
